A study of Homo sapiens with 6 samples.

Results

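PURPL and 4 protein-coding genes of the p53 pathway, MDM2, CDKN1A, XPC and TNFRSF10B, were examined for H3K9me3, a histone mark (histone H3 with 3 methyl groups on lysine 9) typical of silent, compact chromatin. These 5 genes stand among 59098 annotated genes on chromosomes 1 to 22 and X. For each gene, every H3K9me3 peak that overlapped its body or the 5 kb on either side was collected, which gave 5 of the 48435 peaks in the 3 lists together. For PURPL every peak within 1 Mb was collected too, which gave 2. The genes were picked by name for their place in the p53 pathway, with earlier results of these lists known.

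The cells were BJ, an established line of human skin fibroblasts. All 3 cell lines were made with CRISPR interference, where a catalytically inactive Cas9 is led by its guide to a gene and represses it. The first line carried a control guide (sgCtrl), the second PURPL guide 1 (sgRNA-PURPL#1) and the third PURPL guide 2 (sgRNA-PURPL#2). Each line gave 1 H3K9me3 library and 1 input library, made from cells fixed with formaldehyde, and the labels do not say whether a line was 1 clone or a mixed population, nor which repressor domain was used. No time point or p53-activating treatment is given in the labels.

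p53 is a transcription factor that stress signals stabilise, and it binds a pair of short half-sites in DNA to switch on genes of cell cycle arrest, DNA repair and cell death. MDM2 is both its target and the ubiquitin ligase that marks it for destruction, so the pair form a feedback loop. PURPL is a long non-coding RNA that p53 induces and that is known to restrain basal p53 levels. H3K9me3 is laid down mainly over repeats, zinc finger gene clusters and silent genes, and is as a rule sparse at active promoters.

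On these chromosomes 22627 peaks were listed for the control, 14087 for guide 1 and 11721 for guide 2, so a gene had fewer chances to carry a peak with either guide. The depth of the libraries is unknown, and no value is corrected for it. Since each cell line gave a single H3K9me3 library, differences could not be set against replicates and carry no p-value. The authors' score of a peak starts at 10 in all 3 lists and its scale is not named. It is given below as the share of the peaks of the same list that scored lower. The lists hold no RNA values, so the fibroblast identity could not be read from expression. Of 16 fibroblast marker genes, 4 had a control peak in this window (COL1A2, DCN, PDGFRA and VIM), 1 a guide 1 peak and 1 a guide 2 peak. Of 18 markers of keratinocytes, melanocytes, endothelium and blood, 1 had a control peak (MITF) and 0 a peak with either guide. Of all coding genes 15.1%, 7.33% and 4.25% had a peak in the control, guide 1 and guide 2 lists. The 95% Wilson intervals of the marker lists, 10.2 to 49.5% and 0.988 to 25.8% in the control, both hold that control share.

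PURPL itself carried no H3K9me3 peak in any list. The gene (gene ID 643401, GRCh38 chromosome 5, 27472292 to 27496401, plus strand, 24110 bp) had 0 bases under peaks in each of the 3 lists, and the same held with 5 kb added on each side. The lists of both PURPL guides were thus like the control list in holding no peak at the gene the guides were made for. Among lncRNA genes, 8.83% had a control peak in such a window, 3.45% a guide 1 peak and 1.73% a guide 2 peak, so a window without a peak is the usual state of a gene of this kind. A signal too weak to be called as a peak would not be seen in these lists.

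The RefSeq promoter window of PURPL (GRCh38.p14, chr5:27472042-27472341, plus strand, 250 bases before to 50 after the transcription start) is shown because it holds a match to the p53 consensus and because no list had a peak over it. Capitals mark a full p53 site, meaning 2 abutting half-sites of 10 bases that both match the p53 half-site consensus.

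PURPL promoter: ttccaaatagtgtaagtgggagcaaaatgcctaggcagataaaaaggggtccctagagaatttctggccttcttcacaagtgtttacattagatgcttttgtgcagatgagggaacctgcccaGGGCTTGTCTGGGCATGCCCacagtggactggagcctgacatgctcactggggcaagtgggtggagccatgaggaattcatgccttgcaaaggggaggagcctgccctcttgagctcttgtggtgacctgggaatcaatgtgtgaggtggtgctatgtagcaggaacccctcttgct

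The site lies from 127 to 108 bases before the start, at 27472165 to 27472184. Such a full match, allowing a spacer of up to 13 bases between the half-sites, was found in 10 of 34961 promoter windows (0.0286%). The half-site consensus is its own reverse complement, so both strands were searched at once. Of the 51 p53 targets with a promoter entry, PURPL and the DNA damage recognition gene DDB2 held one. At least 1 half-site was held by 10 of the 51 (19.6%), against 8.06% of the 27195 genes with an entry. These shares are per gene, and genes with several promoter windows, such as the targets MDM2 and BID, had more chances to hold one. The match in PURPL is a description of these letters and was not tested for binding.

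The surroundings of PURPL were almost free of H3K9me3 peaks. Within 1 Mb there was 1 control peak, no guide 1 peak and 1 guide 2 peak. The control peak lay 113.8 kb from the gene on the side of its start, at 27358045 to 27358455, with a width of 411 bp and a score above that of 7.56% of the control peaks. The guide 2 peak lay nearer, 45.5 kb away on the same side, at 27426468 to 27426783. It was narrower, at 316 bp, but its score was above that of 91.4% of the guide 2 peaks, and it overlapped no peak of the other lists. Neither peak lay in an annotated gene.

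With guide 1 the nearest peak was 4845 kb from PURPL, on the far side of its 3′ end. Only 1.4% of lncRNA genes had a guide 1 peak as far away or farther. For the control distance that share was 52.9%, and for guide 2 it was 94.3%, so PURPL lay far from a peak in the guide 1 list and near one in the guide 2 list. Within 5000 kb of the gene the lists held 8, 1 and 4 peaks.

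Sparse marking is shared by other genes in such places. PURPL has 1 protein-coding gene within 1 Mb, the cadherin gene CDH9, 433.7 kb away, and only 4.49% of lncRNA genes have as few. Among these 816 genes, 39.1% had no more control peaks within 1 Mb than PURPL, 60.4% no more guide 1 peaks and 88.5% no more guide 2 peaks. Over all 18177 lncRNA genes these shares were 10.6%, 21.7% and 71.7%. The median lncRNA gene had 6, 2 and 1 peaks within 1 Mb. The nearest guide 1 peak lay at a median of 1320 kb from these 816 genes, against 394 kb over all lncRNA genes. The share of the 816 as far from a guide 1 peak as PURPL was not computed.

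**Figure D1:**
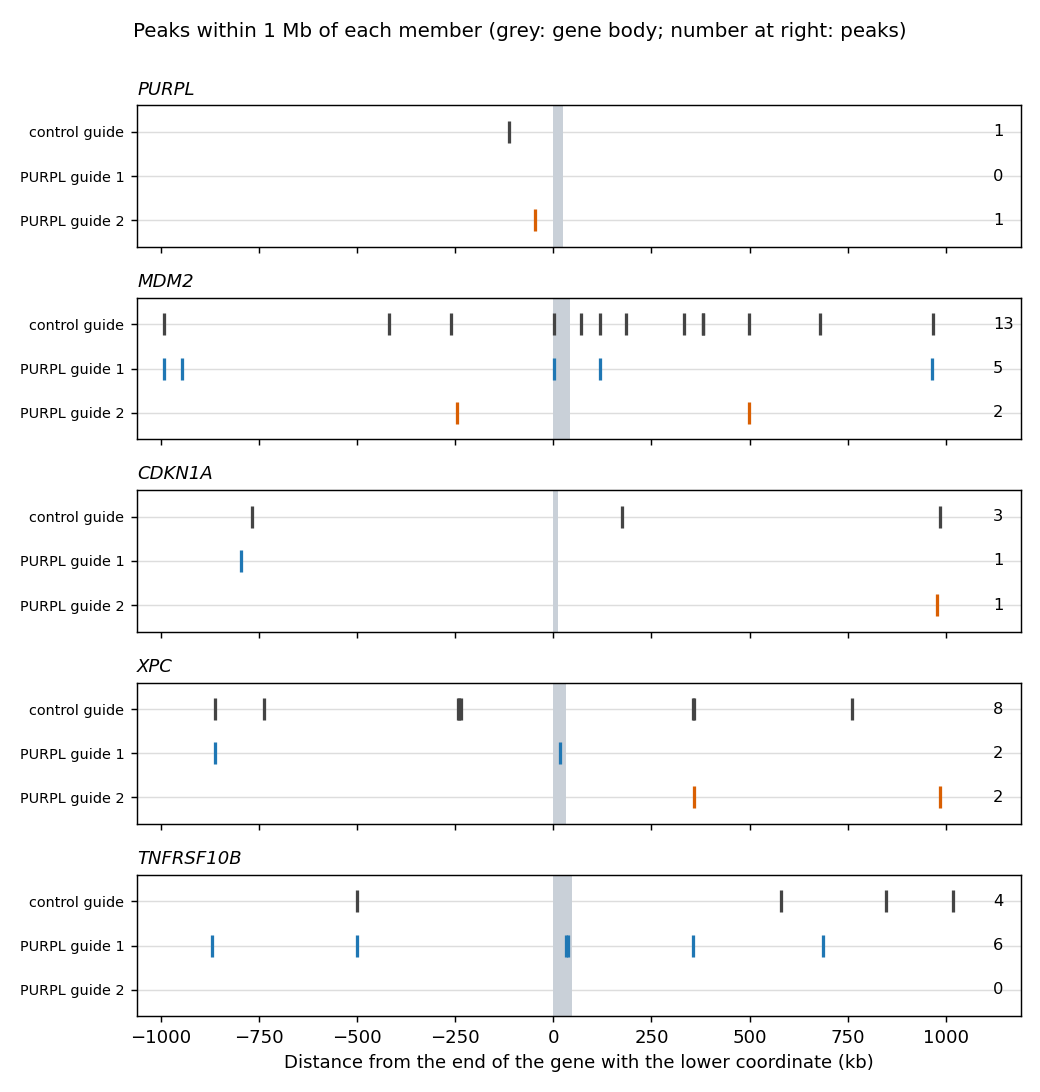
Each panel shows 1 gene, with the position of every peak within 1 Mb as a tick (x axis: distance in kb from the end of the gene with the lower coordinate; rows: the 3 cell lines; grey: the gene body; numbers: peaks in the row). PURPL had 1, 0 and 1 peaks, and MDM2 had 13, 5 and 2.

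MDM2 was the only one of the 5 genes with a peak in the control. The gene (gene ID 4193, GRCh38 chromosome 12, 68808172 to 68850686, plus strand) had 1498 bases under 1 control peak, 809 bases under 1 guide 1 peak and 0 bases with guide 2. The control peak ran from 68809036 to 68810533, with a score above 54.6% of its list. The guide 1 peak ran from 68809187 to 68809995, with a score above 28.2% of its list, and all of its 809 bases lay inside the control peak. The marked stretch was therefore the same place in both lists, 1.85 times as long in the control. In the guide 2 list the nearest peak was 246 kb away.

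Among protein-coding genes, 15.1% had a control peak in the window, 7.33% a guide 1 peak and 4.25% a guide 2 peak. Among those of 10 to 50 kb, the length class of all 5 genes here, the shares were 9.54%, 5.39% and 3.65%. At MDM2 coverage was longest in the control, less with guide 1 and none with guide 2. That order was found at 574 of 19974 coding genes (2.87%), and at 128 of 8058 of those of 10 to 50 kb (1.59%).

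The MDM2 peak lay at the start of the gene. MDM2 is transcribed from a constitutive promoter and from a second one further down that p53 drives. RefSeq lists starts at 68808172 and 68808177 for the first and at 68809017 and 68809024 for the second. The control peak began 12 bases after the last of these starts and ended 1509 bases after it, and the guide 1 peak ran from 163 to 971 bases after it. The second promoter window is shown with the bases under the control peak in capitals (GRCh38.p14, chr12:68808774-68809073, plus strand).

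MDM2 second promoter: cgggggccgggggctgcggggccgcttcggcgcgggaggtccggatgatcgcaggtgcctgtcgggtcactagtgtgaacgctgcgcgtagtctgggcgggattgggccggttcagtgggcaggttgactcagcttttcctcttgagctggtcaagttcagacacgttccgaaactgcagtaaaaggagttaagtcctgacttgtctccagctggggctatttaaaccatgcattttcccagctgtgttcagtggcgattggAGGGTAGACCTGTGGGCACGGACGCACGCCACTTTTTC

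The control peak covered 38 of these 300 bases, and the guide 1 peak none. No promoter window of MDM2 held a full match to the p53 consensus. With 1 mismatch allowed in each half-site, this window held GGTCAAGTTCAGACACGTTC, at 68808923 to 68808942, from 101 to 82 bases before the start at 68809024. Such a looser match was found in 5.24% of all promoter windows. The MDM2 match ended 93 bases before the control peak and 244 bases before the guide 1 peak, so neither peak covered it.

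A peak over a promoter window was rare in these lists. Of 15812 protein-coding genes with a promoter entry, 25 had one in the control list (0.158%), 18 in the guide 1 list (0.114%) and 10 in the guide 2 list (0.0632%). Of the 25 in the control, 7 belonged to the TAF11L family, 6 were protocadherins and 3 were zinc finger genes, families named after their values were seen. A control peak within 1 kb of a listed start was found at 0.607% of these genes, and a guide 1 peak at 0.297%. MDM2 was among both.

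Beyond the 5 kb flank, the next control peaks near MDM2 lay 28.2 kb and 76.8 kb away, both in the body of the neighbouring carboxypeptidase gene CPM. They were shorter, at 264 and 484 bp, with scores above 22.6% and 28.6% of the list. A guide 1 peak of 308 bp stood 76.4 kb away in CPM, next to the second of these without overlapping it. Within 1 Mb the lists held 13, 5 and 2 peaks, against medians of 7, 2 and 1 for all coding genes. The peak inside MDM2 was the longest of the 13 control peaks and of the 5 guide 1 peaks. Of the 5 guide 1 peaks this was the 1 on a control peak, and neither guide 2 peak lay on one. Over the whole lists, 79.2% of guide 1 peaks and 82.9% of guide 2 peaks overlapped a control peak by at least 1 bp. The whole lists also hold densely marked stretches, such as the 182, 167 and 169 peaks within 1 Mb of the p53 target gene SPATA18. The share without such stretches was not computed.

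CDKN1A encodes p21, the cyclin-dependent kinase inhibitor through which p53 halts the cell cycle. The gene (gene ID 1026, GRCh38 chromosome 6, 36676463 to 36687332, 10870 bp) had 0 bases under peaks in all 3 lists. Its window also holds the p53-induced non-coding genes PANDAR and DINOL, which were at 0 in all 3 lists as well. The nearest control peak lay 163 kb away, the nearest guide 1 peak 794 kb and the nearest guide 2 peak 967 kb. Of all coding genes, 40.1%, 24.8% and 39.1% had a peak as far away or farther in these lists, so CDKN1A lay in a stretch with few peaks but not an unusual one. Within 1 Mb there were 3, 1 and 1 peaks, and neither guide peak overlapped a control peak.

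XPC encodes the protein that finds distorting DNA lesions at the start of nucleotide excision repair. The gene (gene ID 7508, GRCh38 chromosome 3, 14145147 to 14178601, minus strand) had 1106 bases under a guide 1 peak and 0 in the lists of the control and guide 2. The guide 1 peak, at 14161021 to 14162126, lay inside the gene, from 16.5 to 17.6 kb after its start, and away from the promoter window. Its score was above only 0.348% of the guide 1 peaks, so it was among the weakest of the list. In the control the nearest peak was 234 kb away, and with guide 2 it was 324 kb away. The antisense gene XPC-AS1 and the neighbours TMEM43 and LSM3 had no peak in any list.

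Within 1 Mb of XPC there were 8 control peaks, 2 guide 1 peaks and 2 guide 2 peaks, near the medians of 7, 2 and 1 for all coding genes. The peak inside XPC is 1 of the 2 guide 1 peaks and overlapped no control peak, while the other did. Of the guide 2 peaks 1 lay on a control peak, in the gene GRIP2.

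TNFRSF10B encodes DR5, a death receptor for the ligand TRAIL that p53 induces. The gene (gene ID 8795, GRCh38 chromosome 8, 23020133 to 23069031) had 564 bases under guide 1 peaks and 0 in the lists of the control and guide 2. The guide 1 bases came from 2 narrow peaks inside the gene. The first, at 23051134 to 23051448, was 315 bp wide with a score above 1.8% of its list, and the second, at 23056978 to 23057226, was 249 bp wide with a score above 33.1%. The nearest control peak was 500 kb away, and the nearest guide 2 peak was 3328 kb away.

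TNFRSF10B was the 1 gene of the 5 with more guide 1 than control peaks within 1 Mb, at 6 against 4, with 0 for guide 2. Of all coding genes 3.83% had more guide 1 than control peaks in that span, but the 6 include the 2 peaks inside the gene, which were known when it was picked. Of the 6, 1 lay on a control peak, in the calcineurin gene PPP3CC. The other TRAIL receptor genes of the same cluster, TNFRSF10A, TNFRSF10C and TNFRSF10D, had 0 bases under peaks in all 3 lists.

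Around the 5 genes together, 3 of the 14 guide 1 peaks within 1 Mb and 1 of the 6 guide 2 peaks lay on a control peak. With the 4 guide 1 peaks in the 5 gene windows set aside, the guide 1 count was 2 of 10. Of the 14, 11 had a score below 22, the median of the 3 lists pooled, and 1 of these 11 lay on a control peak. Of the 6 guide 2 peaks, 4 had a score below 22, and 0 of these 4 lay on a control peak. Among all peaks below that score, the share on a control peak was 68.5% for guide 1 and 75.8% for guide 2. These peaks lie in 5 places, and those places were picked with earlier results known, so the difference from the whole lists is a description. The whole lists also include densely marked stretches, as given for MDM2.

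A peak with guide 1 and none in the control or guide 2, as at XPC and TNFRSF10B, was found at 243 coding genes (1.22%), and at 0.794% of those of 10 to 50 kb. Both genes were named with this pattern known, so their number is a description. None of the 4 guide 1 peaks in the 5 genes had a score at or above 22, while the control peak of MDM2, at 23, did. With the peaks below that median left out, the guide 1 list marked none of the 5 genes.

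**Figure D2:**
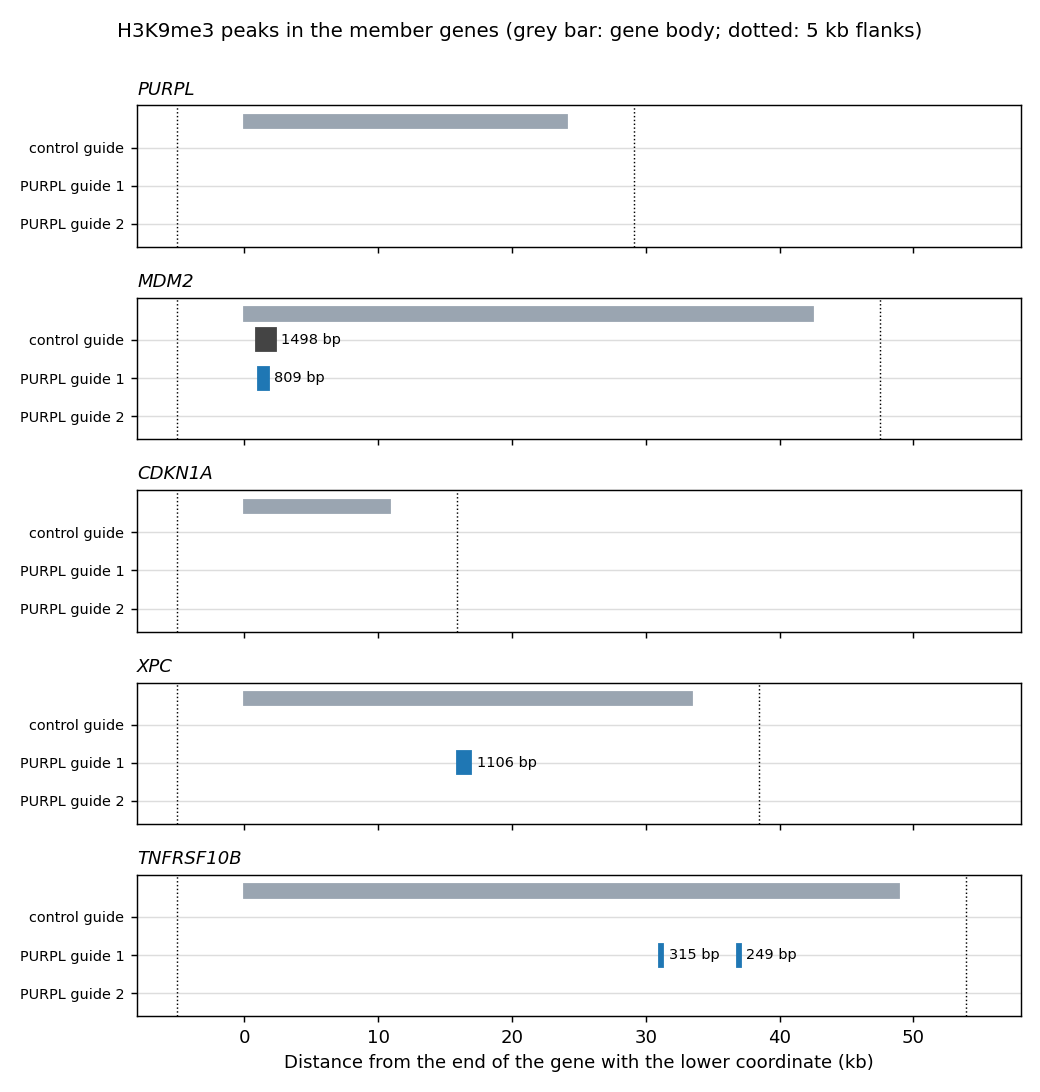
Each panel shows 1 gene with the peaks of the 3 cell lines as boxes (x axis: distance in kb from the end of the gene with the lower coordinate; grey bar: gene body; dotted lines: 5 kb flanks; text: peak width). PURPL and CDKN1A had no box, MDM2 had boxes of 1498 and 809 bp at 1 place, and XPC and TNFRSF10B had boxes with guide 1 alone.

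A wider list of 67 p53 targets, of which 60 are protein-coding, was read in the same way. Of the 60, 8 had a control peak (13.3%, 95% Wilson interval 6.91 to 24.2), 5 a guide 1 peak (8.33%, 3.61 to 18.1) and 0 a guide 2 peak (0%, 0 to 6.02). These intervals cover counting error only. The shares of all coding genes, 15.1%, 7.33% and 4.25%, lay within these limits. Of the 5 coding targets with a guide 1 peak, 3 were MDM2, XPC and TNFRSF10B, which were picked with their peaks known. Of the 56 coding targets left without the genes picked, 7 had a control peak (12.5%), 2 a guide 1 peak (3.57%, 0.985 to 12.1) and 0 a guide 2 peak. The median target, like the median coding gene, had 0 bases under peaks in every list. The joint length under peaks of the 60 was 10.7 kb for the control, 3.31 kb for guide 1 and 0 kb for guide 2. The guide lengths thus equalled 30.8% and 0% of the control length. Without the genes picked the lengths were 9.25, 0.833 and 0 kb, so the guide 1 length equalled 9.01% of the control length. For all coding genes the guide lengths equalled 37.3% and 14.98% of the control length. These are ratios of total lengths, and a guide peak need not lie on a control peak. The guide 1 peaks of XPC, TNFRSF10B and COP1 shared 0 bases with control peaks, while those of MDM2 and ASCC3 lay inside control peaks.

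Of 7 targets listed as feeding back on p53, 4 had a control peak, 2 a guide 1 peak and 0 a guide 2 peak. Apart from MDM2 these were COP1 and RCHY1, ubiquitin ligases that act on p53, and TRIM22, a TRIM family gene whose place in this role is less sure. Without TRIM22, 3 of 6 had a control peak (50%, Wilson interval 18.8 to 81.2), against 15.1% of all coding genes. MDM2, 1 of these 3, was picked with its peak known, and the interval does not allow for that choice. The share is therefore a description. COP1 had 3173 bases under 4 control peaks, 524 under 1 guide 1 peak and 0 with guide 2. RCHY1 had 1178 bases and TRIM22 253 in the control and 0 in both guides. The COP1 peaks lay from 48.4 to 224 kb after its start, and the guide 1 peak overlapped none of the control peaks. The phosphatase gene PPM1D, PHLDA3 and FBXO22 had no peak in any list. COP1 is 262 kb long and MDM2 42.5 kb, against a median of 24.2 kb for all coding genes.

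Of 18 genes of cell death none had a control or guide 2 peak, and TNFRSF10B was the 1 with a guide 1 peak. Of 11 genes of cell cycle arrest, 1 had a control peak, the repressor gene E2F7 with 317 bases, and 0 had a peak in either guide. Of 7 repair genes, 2 had a control peak, 2 a guide 1 peak and 0 a guide 2 peak. FANCC, of the Fanconi anaemia pathway, had 545 control bases alone, and the helicase gene ASCC3 had 1789, 309 and 0 bases in the 3 lists. Of 17 genes of metabolism, matrix and other roles, 1 had a control peak, the autophagy gene DRAM1. It had 1991 bases from 2.06 to 4.05 kb after its start and 0 in both guides. Of all coding genes 15.1%, 7.33% and 4.25% had a peak in the 3 lists. The control Wilson intervals, in the order given, were 0 to 17.6%, 1.62 to 37.7%, 8.22 to 64.1% and 1.05 to 27.0%, and each held 15.1%. For guide 1 the repair interval, 8.22 to 64.1%, lay above 7.33%. XPC, 1 of those 2 repair genes, was picked with its peak known, as was TNFRSF10B. The other of the 2, ASCC3, is 373 kb long and FANCC 219 kb, against a median of 24.2 kb for all coding genes.

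Peaks in all 3 lists were found at non-coding targets. NEAT1, the RNA around which paraspeckles form, had 4537 bases under 1 control peak, 7221 under 1 guide 1 peak and 2834 under 1 guide 2 peak. The peaks began 458, 75 and 202 bases inside the end of the gene with the lower coordinate, and the guide 1 peak contained the whole control peak and the whole guide 2 peak. Their scores were above 63.1%, 75.1% and 66.0% of their lists, and their widths above 95.02%, 99.2% and 93.2%. This was the widest peak of any p53 target in each of the 3 lists.

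TP53TG1 had 2088 control bases, 2240 guide 1 bases and 472 guide 2 bases under peaks, and the guide 2 peak lay inside the peaks of both other lists. NEAT1 and TP53TG1 were the only 2 of the 67 targets with a peak in all 3 lists, against 0.759% of lncRNA genes and 2.49% of coding genes. They were also the only 2 of the 10 control-marked targets with a longer coverage with guide 1 than in the control, against 5.86% of control-marked lncRNA genes and 5.95% of control-marked coding genes. With guide 2 no target had longer coverage. Of the other 5 non-coding targets with a position, PURPL among them, none had a peak.

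**Figure D3:**
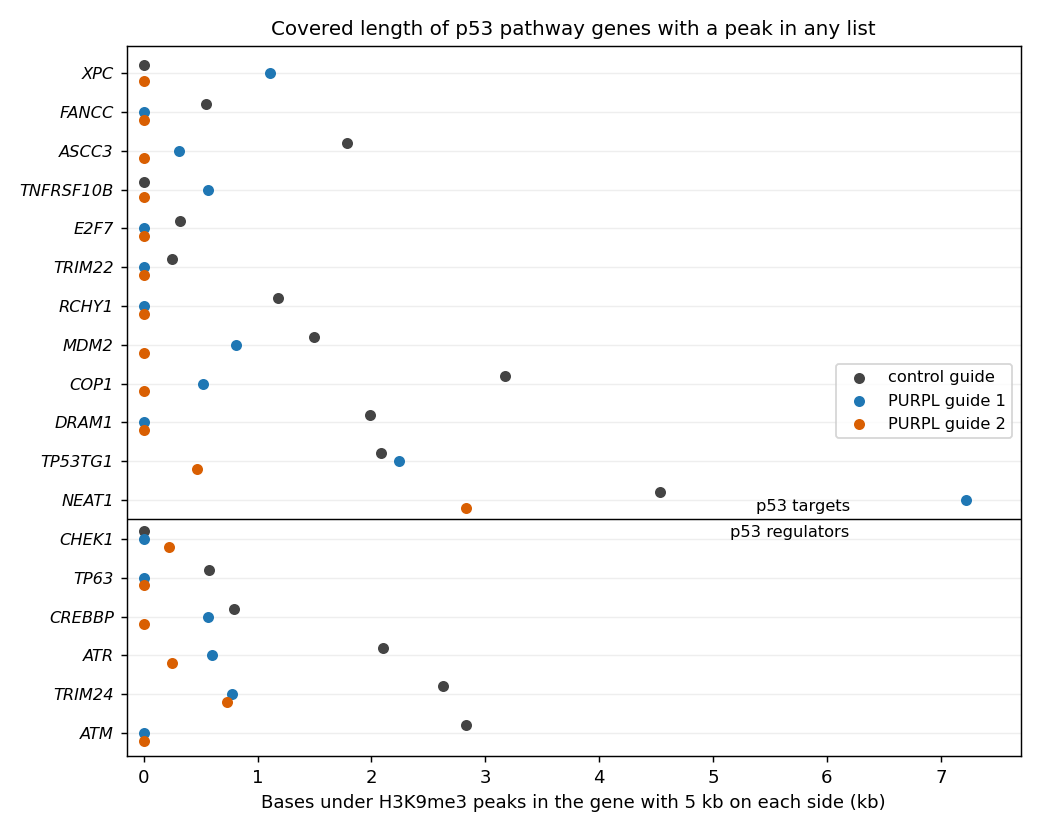
Each row is 1 gene of the p53 target or regulator list with a peak in at least 1 list, and each point is its length under peaks in 1 cell line (x axis: kb in the gene with 5 kb on each side). Among targets the guide 2 point stands at 0 for all but NEAT1 and TP53TG1, and the guide 1 point stands right of the control point at XPC, TNFRSF10B, TP53TG1 and NEAT1.

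Genes that act on p53 were also read as a list of 28. Of these 5 had a control peak (17.9%, Wilson interval 7.88 to 35.6), 3 a guide 1 peak (10.7%, 3.71 to 27.2) and 3 a guide 2 peak (10.7%, 3.71 to 27.2). The shares of all coding genes given above lay inside each of these intervals. The median length of the 28 was 55.0 kb, against 24.2 kb for all coding genes, and the shares were not matched for length. Their joint length under peaks was 8.94 kb, 1.95 kb and 1.21 kb. ATM, the kinase that reports DNA breaks, had 2835 bases in the control and 0 in both guides. ATR, the kinase that reports stalled replication, had 2104, 603 and 252 bases, and the co-regulator TRIM24 had 2633, 779 and 732. At ATR the guide 1 peak shared 311 bases with a control peak, and the guide 2 peak overlapped no peak of the other lists. The TRIM24 guide 2 peak shared 497 bases with a control peak and 0 with guide 1 peaks. The acetyltransferase gene CREBBP had 797, 565 and 0, and the p53 relative TP63 had 571, 0 and 0.

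CHEK1, the checkpoint kinase, had a peak with guide 2 alone, of 223 bases. MDM4, the partner of MDM2, and MYBBP1A, a protein that PURPL is known to bind, had no peak in any list.

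**Figure D4:**
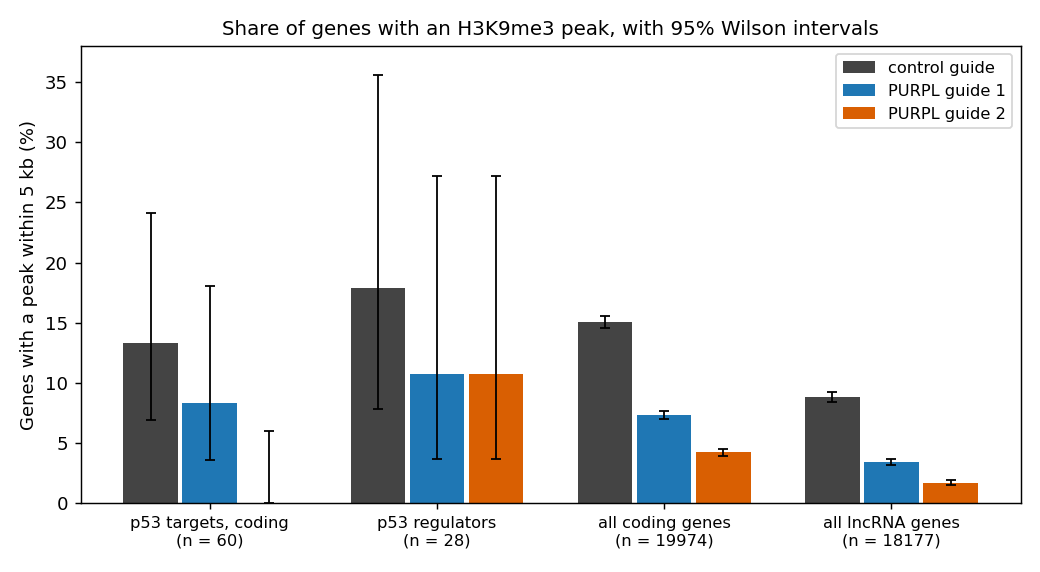
Bars give the share of genes with at least 1 peak in the gene or its 5 kb flanks (y axis, percent) for 4 sets of genes in the 3 cell lines, with 95% Wilson intervals. The coding p53 targets stood at 13.3%, 8.33% and 0%, and all coding genes at 15.1%, 7.33% and 4.25%.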

How the data were processed

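H3K9me3 peaks were read from 1 deposited list per H3K9me3 library. Each list gives positions and the authors' score per peak, and by its name sets the H3K9me3 library against the input of the same line. The submitters' processing notes name MACS2 2.2.9.1, Bowtie2 2.4.2, deepTools 3.5.1 and GATK, and the builds hg38 and GRCh38.p13. How peaks were called, and from how many reads, is not given in those sources. A weakly enriched stretch may therefore be a peak in 1 list and not in another.

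Lists were assigned by the labels, since the peak names inside carry other guide names. Gene positions came from the RefSeq table for GRCh38.p14, without exons, and start sites, strand and sequence from the RefSeq promoter table, which matched 4 of the 5 genes. A peak counted from 1 bp in a window. Of the list names, TP53COR1 did not match, and 2 genes of the lists are not reported here and were left out of all counts of their lists. The members and gene lists were chosen with earlier results of these data known. Genes were named by rule: the 5 genes with their neighbours and nearest peaks, and each list gene with a peak. Python 3.11.15, numpy 2.4.6 and pandas 2.3.3 were used. The promoter and p53 site searches were added after the data were seen. The overlap code was tested on simulated data.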

Additional observations from a re-analysis of the deposited data

How the results depend on the processing

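No paired analysis was possible because each group holds 1 library and no result comes from a test. The number of the 5 genes with a peak, 1, 3 and 0 in the control, guide 1 and guide 2 lists, was 0 for guide 1 with peaks below the pooled median score left out, and 1 for guide 2 with a 50 kb flank, through the peak near PURPL. With that score limit the targets with a peak numbered 4, 1 and 1 (10, 7 and 2 with all peaks), the regulators 1, 2 and 1 (5, 3 and 3), and the control peaks within 1 Mb of PURPL 0. With a 50 kb flank the targets numbered 20, 15 and 5 and the regulators 11, 7 and 6. Within 2000 kb of PURPL the control had 2 peaks. Of 60 such recomputed counts 45 stayed within 1.5 times, among them every one with no flank, with a 10 kb flank, with peaks within 5 kb merged, or with at least 50% of the peak required in the window. The cause was not tested. Depth is unknown, so how weak a peak each list could hold is unknown too.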

Other observations

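The 10 genes whose promoter window holds a full p53 site are PURPL, DDB2, DYNC2H1, MCC, PTCHD4 and the non-coding genes LNCTAM34A, EIF2AK3-AS1, LOC105376065, LOC124901737 and LOC124903192. Of these, 3 had a control peak in the gene or its 5 kb flanks, and none had a peak with either guide. Of the 10, 4 are coding and 6 are lncRNA genes. Over all genes of these kinds, 15.1% and 8.83% had a control peak, 7.33% and 3.45% a guide 1 peak, and 4.25% and 1.73% a guide 2 peak, so among 10 genes a count of 0 with a guide is not unusual. DYNC2H1, a dynein heavy chain gene of cilia, had 3800 bases under 4 control peaks. MCC had 1355 bases under 3, and LOC124901737 had 1147 bases under 2. DYNC2H1 (103109426 to 103479863) and MCC (113022106 to 113488453) are far longer than the median coding gene, at 24.2 kb. So is PTCHD4 (47856673 to 48111197). The shares of all genes were not matched for length. DDB2, PTCHD4 and PURPL had 0 bases in all 3 lists. This group was chosen after its values were seen.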
